A study of Homo sapiens with 28 samples.

Results

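Interferon-stimulated genes are the genes that cells switch on when type I or type II interferon binds its receptor. They were followed here in 7 human acute myeloid leukemia (AML) cell lines before and after inhibition of DOT1L, the methyltransferase that places methyl groups on lysine 79 of histone H3. The group was defined by a fixed list of 46 gene symbols, grouped by function into RNA sensors, STAT and IRF factors, the OAS and IFIT families, MX and other antiviral effectors, the ISG15 system, PARP proteins and other IFI genes. Of these, 45 were measured by name among the 17687 named genes of the array, each by 1 probe set, and STAT2 was not measured by name here. A rearranged MLL gene (MLL-r) is carried by MOLM-13, THP-1, MV4-11 and NOMO-1 and not by U-937, HL-60 and OCI-AML3 (non-MLL-r). Each line was kept for 8 days either in 1 µM Pinometostat, an inhibitor of the DOT1L enzyme, or in 0.01% DMSO as control. RNA was hybridized to Clariom S arrays, with 2 arrays per line and condition and 28 in all. Each line is an established culture of a single origin, and the 3 culture media used differed between lines: MV4-11 was grown in IMDM, OCI-AML3 in MEM-Alpha and the other 5 in RPMI-1640, so that line and medium cannot be told apart. The sources used here do not say if replicate arrays come from separate cultures, and p-values therefore measure the spread between these arrays.

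In the textbook pathway, foreign RNA or DNA inside a cell is bound by sensors such as RIGI (RIG-I), IFIH1 (MDA5) and cGAS, which lead to the making of type I interferons. Secreted interferon binds IFNAR1 and IFNAR2, JAK kinases at the receptor are activated, and a complex with IRF9 as its DNA-binding subunit binds the interferon-stimulated response element (ISRE) in the promoters of target genes. The gamma-activated site (GAS) is a second element, known from the response to interferon gamma. The products of the targets block viral replication at several steps: OAS enzymes make the 2'-5' oligoadenylates that turn on RNase L, IFIT proteins bind foreign 5' RNA ends, MX GTPases trap viral nucleocapsids, and ISG15 is a ubiquitin-like tag. Some of the same genes are sensors or signal transducers themselves, so the pathway feeds back on itself.

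The promoters of the members share a sequence feature that the list did not use. RefSeq promoter windows of 300 bases, 250 before and 50 after each annotated start (GRCh38.p14), were held for 37 of the 45 measured members, and the entry was missing for DHX58, IFIT2, IRF7, MX2, OAS2, OASL, TRIM22 and USP18. The ISRE core (GAAA, any 2 bases, GAAA), searched on both strands, was found for 27 of the 37 members (73%), against 4.38% of the 27305 genes in the table and 3.57% of its 35116 windows. The GAS core TTCNNNGAA, which reads the same on both strands and can overlap an ISRE core, was found for 13 of the 37 members (35.1%), against 9.38% of genes and 7.66% of windows. The 200 bases before the start are printed below for 4 members with large changes in OCI-AML3 and a match, and for ISG15 and HERC6, which were called in no line; this choice was made with the values known. Capitals mark ISRE and GAS cores on either strand, so that an ISRE core on the opposite strand reads TTTC, 2 bases, TTTC.
MX1, chr21:41431850-41432049, + strand: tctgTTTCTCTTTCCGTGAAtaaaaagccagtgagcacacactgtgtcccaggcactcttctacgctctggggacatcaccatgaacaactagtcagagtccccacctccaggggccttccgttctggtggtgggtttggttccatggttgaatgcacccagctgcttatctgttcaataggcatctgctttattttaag
OAS1, chr12:112906762-112906961, + strand: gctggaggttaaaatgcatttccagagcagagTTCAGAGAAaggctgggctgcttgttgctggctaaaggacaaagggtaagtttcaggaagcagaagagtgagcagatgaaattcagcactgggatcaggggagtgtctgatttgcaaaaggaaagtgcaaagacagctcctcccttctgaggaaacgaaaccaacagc
IFIT1, chr10:89392423-89392622, + strand: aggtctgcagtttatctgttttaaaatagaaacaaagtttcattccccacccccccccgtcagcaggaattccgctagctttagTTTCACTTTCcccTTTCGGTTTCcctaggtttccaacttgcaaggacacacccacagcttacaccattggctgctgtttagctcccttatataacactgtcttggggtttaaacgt
IFIT3, chr10:89327797-89327996, + strand: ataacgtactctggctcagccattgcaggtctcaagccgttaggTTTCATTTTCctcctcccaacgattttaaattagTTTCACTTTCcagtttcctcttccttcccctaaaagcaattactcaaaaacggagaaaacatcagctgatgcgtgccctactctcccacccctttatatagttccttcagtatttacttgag
ISG15, chr1:1013297-1013496, + strand: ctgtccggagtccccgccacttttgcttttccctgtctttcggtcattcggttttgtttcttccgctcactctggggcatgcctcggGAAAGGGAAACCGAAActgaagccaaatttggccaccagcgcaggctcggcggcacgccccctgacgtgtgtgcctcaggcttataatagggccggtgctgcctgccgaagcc
HERC6, chr4:88378652-88378851, + strand: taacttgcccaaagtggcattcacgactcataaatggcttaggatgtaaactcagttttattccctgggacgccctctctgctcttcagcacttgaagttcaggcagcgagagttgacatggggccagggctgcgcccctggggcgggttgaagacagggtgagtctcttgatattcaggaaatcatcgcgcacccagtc
IFIT1 and IFIT3 each hold a pair of ISRE cores on the opposite strand, and ISG15 holds 2 that overlap. By the patterns searched, OAS1 holds a GAS core only, and HERC6 holds neither. Near its end the OAS1 stretch also reads GAAACGAAA, a closer spacing that the ISRE pattern cannot match. OAS1 is therefore counted below among the members without an ISRE core, and such spacings were not searched in other members. MX1 has 3 annotated starts, and the window shown is that of the most downstream of them, where an ISRE core and a GAS core overlap. For genes with several windows, the one with the most matches in the printed bases was shown. Another MX1 window holds an ISRE core (GAAACCGAAA) at position 11 after its start, outside the bases that were printed. Among members with a promoter entry, the median change in OCI-AML3 was 1.94 log2 for the 27 with an ISRE core and 1.48 log2 for the 10 without, and 23 of the former and 7 of the latter were called higher there. For the GAS core the order was the other way, with medians of 1.28 log2 for the 13 with it (10 called higher) and 1.93 log2 for the 24 without (20 called higher). These matches describe the letters of the windows and not binding.

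The values are log2 signals after robust multi-array averaging (RMA) over all arrays together, so a difference of 1 is a doubling of the signal. Across the 17687 genes, the 5th percentile of the mean signal was 2.68, the median 5.77 and the 95th percentile 9.22. Replicates of a condition correlated at 0.953 to 0.985 and differed by a root mean square of 0.379 to 0.671 log2. To be called in a line, a gene needed a change of at least 1 log2 and an unadjusted p under 0.05 (limma, 2 against 2 arrays), and the text adds how many passed after Benjamini-Hochberg adjustment over all genes (adjusted p under 0.05). In control cells the leukocyte antigen gene PTPRC had means from 8.53 to 10.39 over the 7 lines and the myeloid factor gene SPI1 from 8.65 to 9.96, while other myeloid markers varied. In OCI-AML3 the monocyte genes ITGAM and CSF1R and the granule gene MPO read 4.59, 5.83 and 5.00, and in HL-60 LYZ and FCER1G read 4.74 and 4.28, as did FCER1G in MOLM-13 (4.28). The T cell genes CD3D, CD3E and CD3G read 2.68 to 3.80 in OCI-AML3, but NKG7, a granule gene of cytotoxic lymphocytes, read 6.61 there and up to 9.79 (U-937).

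Most interferon-stimulated genes were called higher in OCI-AML3. Of the 45 members, 36 were called higher and 0 lower in OCI-AML3, while 1.9% of all genes were called higher and 0.537% lower in that line. All 45 estimates were above 0, with a median change of 1.56 log2, and in 42 members both treated arrays lay above both control arrays, against 13.4% of all genes. At an adjusted p under 0.05, 22 members were higher and 0 lower, against 0.758% of all genes higher. With the replicate number as a block, 36 members were higher at that threshold (2.22% of all genes), namely every called member except IFI27 (adjusted p = 0.11 in the blocked limma fit) and, in addition, IFIT5. Among all genes ranked by their change in OCI-AML3, 7 of the top 10 and 21 of the top 100 were members. The median member stood at the 46.9th percentile of genes in control cells and at the 75th in treated cells. The treated array of replicate 1 read above that of replicate 2 for 37 of 45 members, with medians of 7.63 and 7.08, against 51.6% of all genes, so the size of the rise differed between the treated arrays. Without treated replicate 1, 30 members were called higher.

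**Figure D1:**
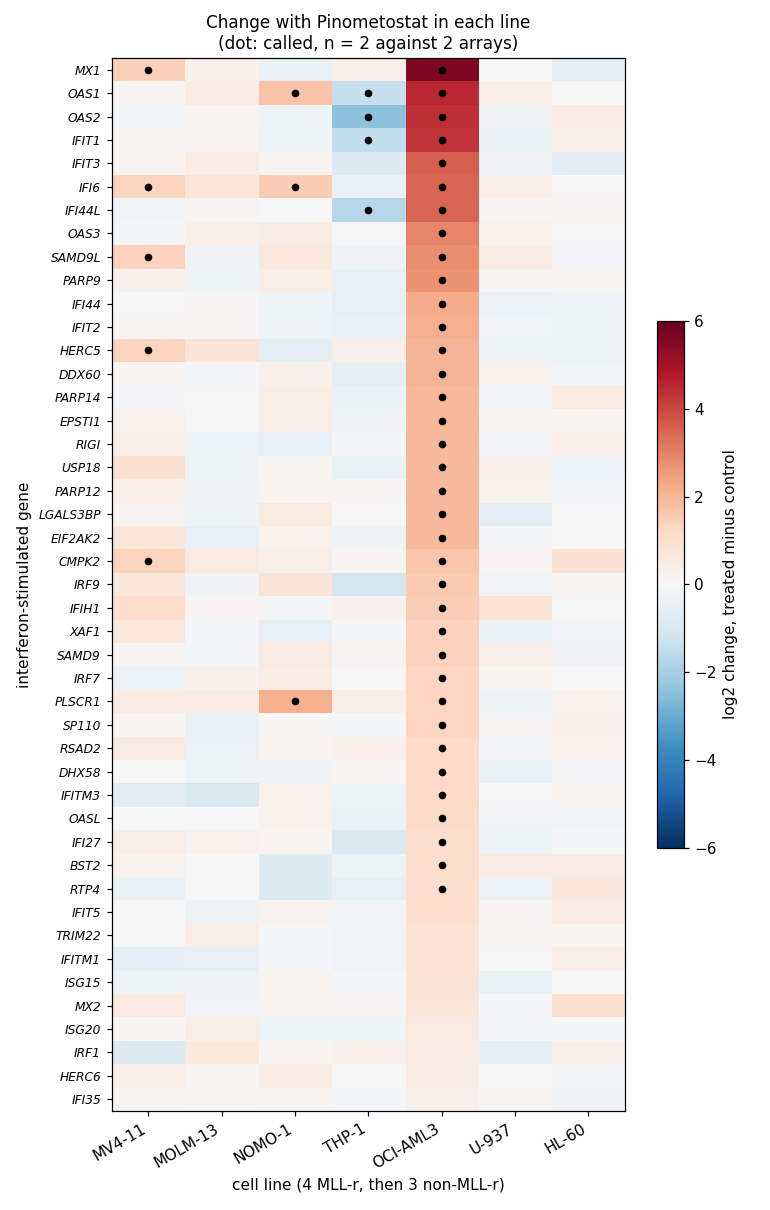
Log2 change (treated minus control mean, n = 2 against 2 arrays) of the 45 measured interferon-stimulated genes (rows, ordered by the change in OCI-AML3) in 7 AML lines (columns), with a dot for each call (change of at least 1 log2, unadjusted p under 0.05). The OCI-AML3 column runs from 0.27 to 5.58 and holds 36 dots, and the THP-1 column holds 4 dots on lowered genes.

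The OAS family held some of the largest changes in OCI-AML3. OAS1 read 4.09 and 4.21 in control cells and 9.08 and 8.29 in treated cells. OAS2 read 4.03 and 4.04 in control cells and 8.75 and 8.13 in treated cells. Both genes were thus in the lower part of the range before treatment and well above the median gene after it, without overlap. The changes were 4.54 ± 0.34 log2 (standard error), or 23.2-fold, for OAS1 and 4.41 ± 0.32 log2, or 21.2-fold, for OAS2, with an adjusted p of 2.6e-05 for each in limma. OAS3, the long member that favors long double-stranded RNA, read 5.28 and 5.36 in control and 8.35 and 8.15 in treated cells, a rise of 2.93 log2. OASL, which lacks the synthetase activity and binds RIG-I, read 5.27 and 4.62 in control and 6.27 and 5.94 in treated cells. Its rise of 1.16 log2 was called without passing adjustment (adjusted p = 0.22, limma).

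All 4 IFIT genes measured had positive differences in OCI-AML3, and 3 were called higher. IFIT1 read 3.02 and 3.14 in control and 7.76 and 7.03 in treated OCI-AML3 cells, a change of 4.31 ± 0.33 log2 or 19.9-fold (adjusted p = 3.2e-05, limma). IFIT3, which stabilizes IFIT1, read 5.37 and 4.83 in control and 8.85 and 8.54 in treated cells, a change of 3.597 log2. IFIT2 read 4.68 and 4.31 in control and 6.98 and 6.35 in treated cells, a change of 2.17 log2. The treated arrays of all 3 lay above the control arrays by more than the distance between replicates. IFIT5 read 4.44 and 5.20 against 5.62 and 6.0, and its difference of 0.99 log2 fell just short of the call.

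MX1, the dynamin-like GTPase MxA, had the largest change of all 17687 genes in OCI-AML3. Its signal was 4.09 and 3.77 in control cells and 9.81 and 9.23 in treated cells. The groups were far apart, and the change was 5.58 ± 0.33 log2 or 47.9-fold (adjusted p = 5.4e-06, limma). MX2, its paralog directed against retroviruses, was already at 8.02 and 7.87 in control cells and read 8.89 and 8.48 after treatment, a difference of 0.74 log2 that was not called. SAMD9L read 6.89 and 6.65 in control and 9.78 and 9.35 in treated cells, and its neighbor SAMD9 7.49 and 7.01 against 8.75 and 8.54. These related antiviral and growth-restraining proteins rose by 2.80 and 1.39 log2. CMPK2, a mitochondrial nucleotide kinase, read 6.15 and 5.88 in control and 7.80 and 7.59 in treated cells, a rise of 1.68 log2. RSAD2 (viperin), which lies beside CMPK2 and makes a chain-terminating nucleotide, read 4.36 and 4.26 in control and 5.45 and 5.59 in treated cells, a rise of 1.21 log2. Neither gene's groups overlapped. BST2 (tetherin), which holds budding virus at the membrane, read 7.74 and 7.10 against 8.82 and 8.11, a rise of 1.04 log2. IFITM3, a membrane protein that blocks viral fusion, was among the brightest members with 10.27 and 9.58 in control and 11.59 and 10.63 in treated cells, a rise of 1.18 log2. For both the lower treated array stood barely above the higher control array, and neither was called without treated replicate 1 (0.69 and 0.71 log2). IFITM1 (0.81 log2), TRIM22 (0.84) and the exonuclease gene ISG20 (0.55) were not called, and control and treated arrays overlapped for IFITM1 and ISG20. IFITM1 and IFITM3 are close copies, and whether their probes tell them apart was not tested. Of the 11 MX and other antiviral effectors, 7 were called higher in OCI-AML3, and only 3 passed adjustment.

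**Figure D2:**
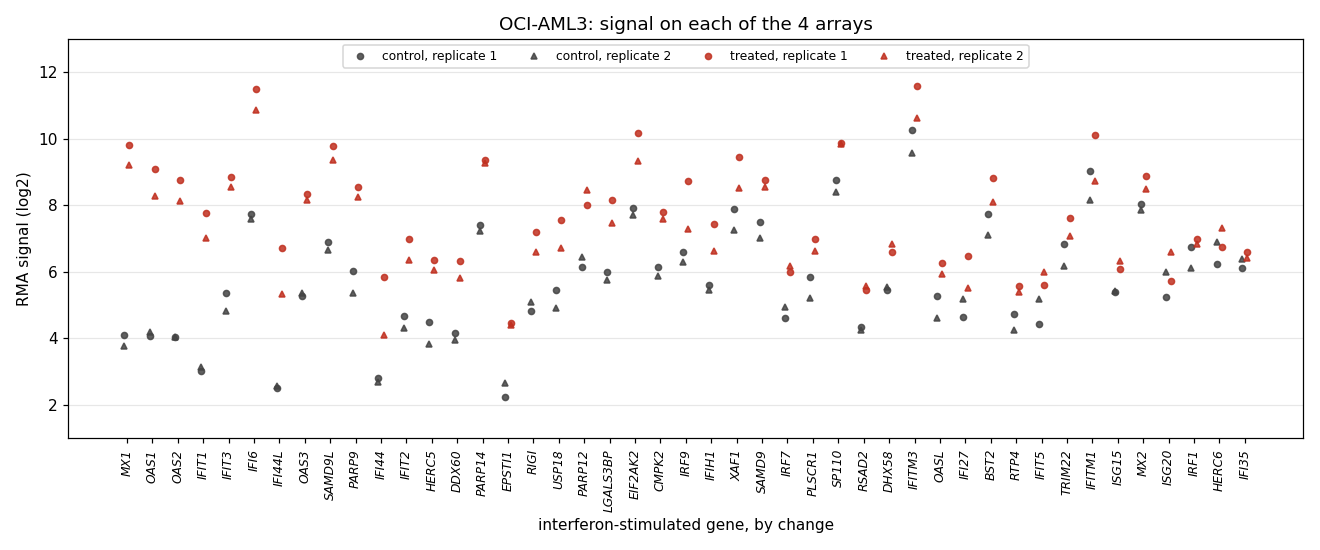
RMA signal (log2, vertical axis) of the 45 interferon-stimulated genes (horizontal axis, ordered by change) on the 4 OCI-AML3 arrays, with grey for control, red for treated, circles for replicate 1 and triangles for replicate 2. Both treated points lie above both control points for 42 genes, and the treated circle lies above the treated triangle for 37.

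The ISG15 system was split in OCI-AML3. HERC5, the ligase that attaches ISG15 to new proteins, read 4.50 and 3.84 in control and 6.35 and 6.05 in treated cells, a rise of 2.03 log2. USP18, which removes ISG15 and also restrains the type I receptor, read 5.46 and 4.92 in control and 7.57 and 6.70 in treated cells, a rise of 1.94 log2. Both passed the adjusted threshold (adjusted p = 0.0093 and 0.0212, limma). ISG15 itself read 5.39 and 5.44 in control and 6.09 and 6.33 in treated cells, a difference of 0.79 ± 0.30 log2 that was not called (adjusted p = 0.63, limma). HERC6, which read 6.25 and 6.91 against 6.74 and 7.30, overlapped between conditions.

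Of the 5 RNA sensors and their regulators, all were called higher in OCI-AML3. DDX60, a helicase that promotes RIG-I-like signaling, read 4.17 and 3.94 in control and 6.34 and 5.83 in treated cells, a rise of 2.03 log2. RIGI read 4.81 and 5.08 in control and 7.19 and 6.60 in treated cells, a rise of 1.94 log2. EIF2AK2 (PKR), the kinase that stops translation on double-stranded RNA, read 7.93 and 7.72 in control and 10.18 and 9.32 in treated cells, a rise of 1.93 log2. No control array reached a treated array in any of these genes, and all 3 passed adjustment. IFIH1 read 5.61 and 5.46 in control and 7.43 and 6.62 in treated cells (1.496 log2, adjusted p = 0.071 in limma), and DHX58 (LGP2) 5.47 and 5.55 in control and 6.59 and 6.83 in treated cells (1.20 log2, adjusted p = 0.13).

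Among the transcription factors, IRF9, the DNA-binding subunit of the ISRE complex, read 6.61 and 6.28 in control and 8.72 and 7.28 in treated OCI-AML3 cells, a rise of 1.56 ± 0.42 log2. Treated replicate 1 stood 1.44 log2 above treated replicate 2, and without it the change was 0.83 log2 and not called. IRF7, the factor that amplifies interferon-alpha transcription, read 4.60 and 4.96 in control and 6.0 and 6.18 in treated cells, a rise of 1.31 log2. IRF1 differed by 0.49 log2, which was not called. None of these 3 factors passed adjustment.

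The 3 PARP proteins, ADP-ribosyltransferases of which PARP9 acts with the ligase DTX3L, rose together in OCI-AML3. PARP9 read 6.04 and 5.36 in control and 8.55 and 8.24 in treated cells (2.70 log2). PARP14 read 7.42 and 7.23 against 9.37 and 9.28 (2.00 log2), and PARP12 6.15 and 6.46 against 8.02 and 8.46 (1.94 log2). All 3 passed the adjusted threshold, and PARP12 was higher in replicate 2 than in replicate 1 under both conditions.

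Of the 11 IFI and other induced genes, 10 were called higher in OCI-AML3. IFI6, a small mitochondrial and reticulum membrane protein, read 7.74 and 7.60 in control and 11.49 and 10.85 in treated cells, a rise of 3.50 log2 or 11.3-fold. IFI44L read 2.51 and 2.57 in control and 6.70 and 5.34 in treated cells, and IFI44 2.81 and 2.69 against 5.84 and 4.10. These neighbors on the chromosome were close to the dimmest genes of the array before treatment, and rose by 3.48 and 2.22 log2 with the treated replicates more than 1 log2 apart. EPSTI1, also dim in control cells, read 2.24 and 2.67 in control and 4.48 and 4.42 in treated cells. LGALS3BP, a secreted glycoprotein, read 6.0 and 5.76 in control and 8.15 and 7.48 in treated cells. Both rose, by 2.00 and 1.94 log2, and passed adjustment. XAF1, an antagonist of the apoptosis inhibitor XIAP, read 7.90 and 7.26 in control and 9.44 and 8.51 in treated cells (1.39 log2). PLSCR1, a phospholipid scramblase, read 5.85 and 5.22 in control and 6.99 and 6.64 in treated cells (1.28 log2). SP110, a nuclear body protein, read 8.76 and 8.40 in control and 9.86 and 9.85 in treated cells (1.28 log2). These 3 were called and did not pass adjustment. IFI27 read 4.64 and 5.20 in control and 6.49 and 5.51 in treated cells (1.08 log2), and RTP4 4.72 and 4.24 against 5.56 and 5.41 (1.00 log2), which puts RTP4 on the edge of the fold threshold. IFI35 was the member that moved least, from 6.12 and 6.38 to 6.60 and 6.43.

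In each of the other 6 lines far fewer members were called. In MV4-11, 5 members were called higher and 0 lower (2.39% of all genes higher, 1.52% lower), and 0 passed adjustment (0.888% of all genes higher), although 6 did with the replicate block (3.3% of all genes). MX1 read 4.21 and 3.86 in control and 5.91 and 5.00 in treated MV4-11 cells. IFI6 read 6.77 and 6.58 in control and 8.09 and 7.97 in treated cells. SAMD9L read 5.73 and 5.84 in control and 7.42 and 6.89 in treated cells. All 3 were higher in both treated arrays, by 1.42, 1.35 and 1.37 log2. HERC5 read 4.36 and 3.38 against 5.60 and 4.84 (1.35 log2), and CMPK2 4.77 and 5.48 against 6.28 and 6.59 (1.31 log2). Each member called in MV4-11 was also called higher in OCI-AML3, as were 36 of all 45 members. OAS1, OAS2 and IFIT1, with differences of 0.07, −0.07 and 0.11 log2, were not called in MV4-11. The count in MV4-11 depended on single arrays: it was 3 without treated replicate 1, and 8 without treated replicate 2 or without control replicate 1.

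In NOMO-1, 3 members were called higher and 0 lower (4.75% of all genes higher, 3.12% lower). PLSCR1 read 6.13 and 6.28 in control and 8.35 and 8.30 in treated cells, a change of 2.12 ± 0.33 log2 (adjusted p = 0.012, limma). OAS1 read 5.04 and 4.01 in control and 6.24 and 6.23 in treated cells (1.71 log2). IFI6 read 7.32 and 7.00 in control and 8.66 and 8.75 in treated cells (1.55 log2). The treated arrays agreed closely in all 3 and lay above the controls, and PLSCR1 alone passed adjustment, as did 1.68% of all genes. The share of members called, 3 of 45, was near that of all genes in NOMO-1. With the block 4 members were higher and 2 lower at an adjusted p under 0.05 (7.85% and 7.61% of all genes), the lower ones being BST2 and RTP4 (−0.77 and −0.82 log2), and the count of calls rose to 8 without control replicate 2 and to 6 without control replicate 1.

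THP-1 was the line most often highest in control cells, and the only one in which members were called lower. In control cells, THP-1 had the highest mean of the 7 lines for 21 of the 45 members, against 10.6% of all genes, and its median member stood at the 55.6th percentile. After treatment 0 members were called higher and 4 lower in THP-1, against 1.72% and 0.718% of all genes. OAS2 read 6.02 and 5.49 in control and 3.78 and 2.80 in treated cells, a change of −2.46 ± 0.38 log2 (adjusted p = 0.015, limma), and was the only member to pass adjustment (0.226% of all genes lower). OAS1 read 6.52 and 5.66 in control and 4.74 and 4.63 in treated cells, a change of −1.40 log2. IFI44L read 5.13 and 2.78 in control and 1.95 and 2.54 in treated cells, a change of −1.72 log2. IFIT1 read 5.75 and 4.30 in control and 4.30 and 2.84 in treated cells, a change of −1.45 log2. All 4 were called lower. Control and treated arrays stood well apart for OAS2 and touched for IFIT1, and the 4 treated means lay within the range of the control means of the other lines. Control replicate 1 read above control replicate 2 for 39 of 45 members (medians of 6.40 and 5.85), against 52.1% of all genes, and without control replicate 1 the call for OAS2 was the only one of the 4 left. With the block, 6 members were lower at an adjusted p under 0.05 (1.5% of all genes lower): these 4 without IFI44L, and IRF9, IFIT3 and IFI27 (−0.99, −0.82 and −0.86 log2).

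The 4 members that fell in THP-1 were also called higher in OCI-AML3, as were 36 of all 45 members. No other member was called in both directions. In a contrast added after these values were seen, the change in THP-1 was set against the mean of the 5 lines other than OCI-AML3. It was lower at an adjusted p under 0.05 (limma) for 2 of 45 members, against 0.204% of all genes, and higher for 0, against 0.158%. For OAS1 the change in THP-1 was −1.40 log2 against a mean of 0.50 (adjusted p = 0.019), and for OAS2 −2.46 against 0.02 (adjusted p = 0.038).

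**Figure D3:**
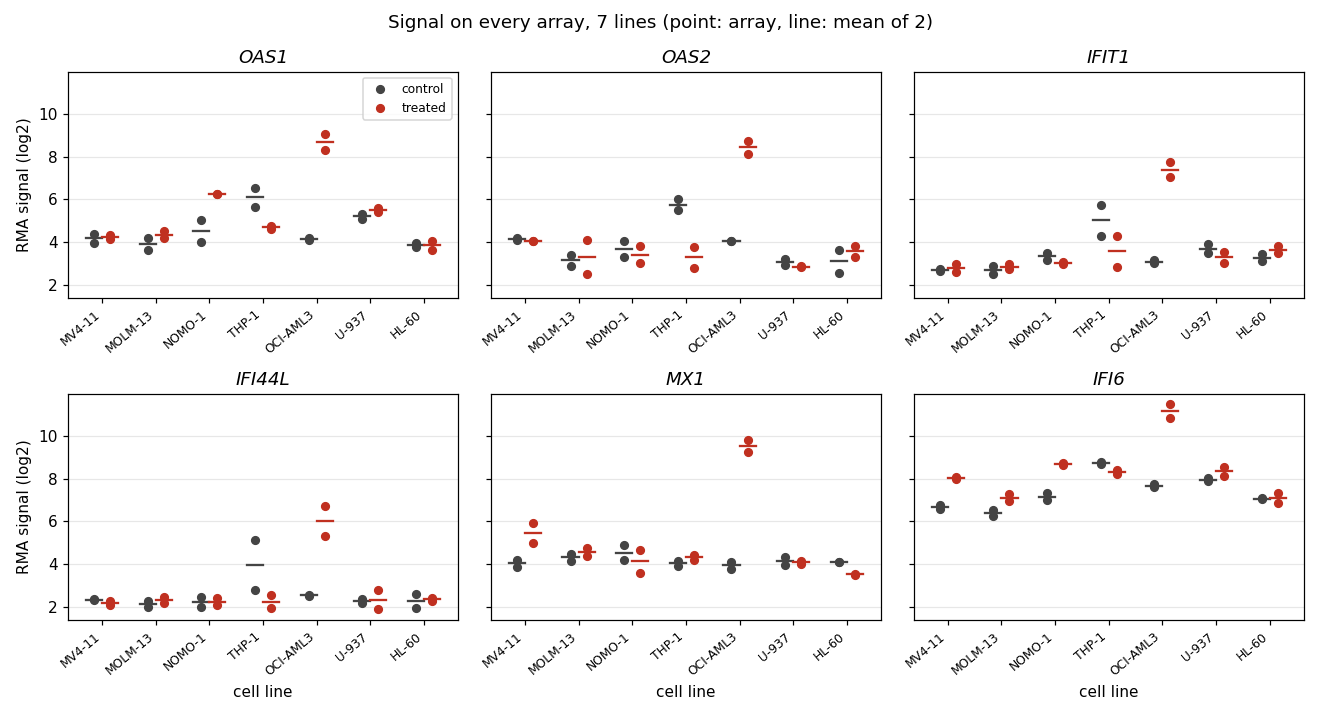
RMA signal (log2, vertical axis) of OAS1, OAS2, IFIT1, IFI44L, MX1 and IFI6 on all 28 arrays by cell line (horizontal axis), with grey for control, red for treated, a point for each array and a bar for the mean of 2 arrays. Treated OCI-AML3 stands above every other group in all 6 panels, control THP-1 has the highest control mean for OAS1, OAS2, IFIT1, IFI44L and IFI6, and MX1 has control means from 3.93 to 4.54 in the 7 lines.

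In MOLM-13, U-937 and HL-60, 0 members were called in either direction. Of all genes, 0.859% were called higher and 0.0848% lower in MOLM-13. The corresponding shares were 0.3% and 0.113% for U-937 and 0.26% and 0.175% for HL-60. At an adjusted p under 0.05, 0 members passed in these lines, where 0.0396%, 0.0339% and 0% of all genes were higher. The largest rise was 0.78 log2 in MOLM-13 (HERC5), 0.82 in U-937 (IFIH1) and 0.94 in HL-60 (MX2). The largest fall was −0.89 log2 in MOLM-13, −0.56 in U-937 and −0.66 in HL-60. None of these changes reached the fold threshold. Leaving out single arrays gave up to 3 calls in MOLM-13, up to 4 in HL-60 and 0 in U-937.

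The difference between lines was tested over all 28 arrays. The change differed between lines at an adjusted p under 0.05 (limma F test of the interaction) for 14 of 45 members, against 3.33% of all genes. The 14 were MX1, OAS1, OAS2, OAS3, IFIT1, IFIT2, IFIT3, IFI6, IFI44, IFI44L, SAMD9L, EPSTI1, PARP14 and PLSCR1. The change in OCI-AML3 lay above the mean of the other 6 lines at an adjusted p under 0.05 for 20 members, against 0.515% of all genes, and below it for 0, against 0.232%. OCI-AML3 was chosen for this contrast with earlier results of these data known. For MX1 the mean change of the other 6 lines was 0.15 log2 and the difference 5.43 ± 0.37 log2 (adjusted p = 2.1e-08), and for IFIT1 the corresponding values were −0.26 and 4.58 ± 0.45 log2 (adjusted p = 5.3e-06). PLSCR1 differed between lines (adjusted p = 0.0023) but not in this contrast, where the difference was 0.73 ± 0.27 log2 (adjusted p = 0.50), and its largest change was that of NOMO-1. With replicate number within line as a block, 31 members differed between lines and 33 stood above the other lines in OCI-AML3. Shares of all genes were not counted for this block or for the repeats that follow, so these counts cannot be set against them. Leaving out 1 replicate of a condition in every line left 7 to 11 and 9 to 12 members.

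Across lines, with the line as the replicate, no member changed on average at an adjusted p under 0.05 (limma, 7 line differences), and 0 of all genes did. At an unadjusted p under 0.05, 5 members were higher (5.78% of all genes) and 0 lower: IFI6, CMPK2, PLSCR1, IFIH1 and MX2. CMPK2 was the only member with a positive change in 7 of 7 lines, from 0.13 log2 in U-937 to 1.68 in OCI-AML3, with a mean of 0.72 (adjusted p = 0.23). IFI6, with a mean change of 1.02 log2, was higher in 6 of 7 lines and was the only member called higher in at least 3 of them, where 0.842% of all genes were. The change of no member depended on MLL status at an adjusted p under 0.05, nor did that of any other gene. At an unadjusted p under 0.05, 5 members (BST2, IFITM1, RTP4, IFITM3 and IFIT5) had a lower change in the MLL-r lines, against 3.14% of all genes, and 0 a higher one, against 3.04%. OCI-AML3, 1 of the 3 non-MLL-r lines, had the largest change of the 7 lines for 41 of 45 members, against 12.4% of all genes. The comparison therefore does not separate MLL status from that line.

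Untreated levels differed between lines at an adjusted p under 0.05 (limma F test over the 7 control means) for 29 of 45 members, against 32.3% of all genes. MX2, HERC5, IFITM1, TRIM22 and IFIT3 had the widest ranges. For MX2 the control arrays of U-937 read 8.55 and 8.44, those of OCI-AML3 8.02 and 7.87, those of THP-1 7.57 and 7.22 and those of NOMO-1 7.53 and 6.56. Lower down, MV4-11 read 5.94 and 4.98, MOLM-13 5.65 and 5.09 and HL-60 5.21 and 3.24. The order had U-937 at the top and HL-60 at the bottom, while OCI-AML3, THP-1 and NOMO-1 lay within about 1 log2 of each other and MV4-11 overlapped MOLM-13. HERC5 read 6.40 and 6.31 in HL-60, 6.76 and 5.72 in THP-1, and 6.13 and 6.20 in U-937, which overlapped, and 2.31 to 4.50 on the control arrays of the other 4 lines. IFITM1 was brightest in MV4-11 (11.59 and 11.50) and dimmest in MOLM-13 (8.41 and 7.87), and TRIM22 was highest in MV4-11 (7.77 and 7.10) and lowest in U-937 (4.11 and 4.22). For TRIM22, MV4-11 overlapped MOLM-13 (7.41 and 6.66), as it did for MX2, whereas for IFITM1 the lines were far apart. IFIT3 read 7.85 and 7.12 in THP-1 and 4.19 to 5.64 on the control arrays of the other 6 lines, with no overlap. By MLL status, control levels differed at an adjusted p under 0.05 for 0 members, and at an unadjusted p under 0.05 for 4 higher and 1 lower (3.34% and 3.15% of all genes).

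Of 83 other pathway genes measured, 7 were called higher and 2 lower in OCI-AML3, where 1.9% and 0.537% of all genes were. In NOMO-1 the same counts were 10 and 2 (4.75% and 3.12% of all genes). None of 21 interferon ligand genes was called in any of the 7 lines, and IFNB1 read 3.46 in control and 3.41 in treated OCI-AML3 cells (means). The ligand genes had a median control signal of 3.08 in OCI-AML3, in the dim range of the array, and interferon-alpha genes are close copies whose probes may not tell them apart. The type I receptor genes IFNAR1 and IFNAR2 differed by −0.13 and −0.45 log2 in OCI-AML3, and neither was called. None of the 5 JAK and STAT genes measured and none of the 7 inhibitors, such as SOCS1 (−0.17 log2), was called there.

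Among sensors upstream of interferon, TLR3, the endosomal receptor for double-stranded RNA, read 2.57 and 2.39 in control and 5.02 and 4.25 in treated OCI-AML3 cells, a rise of 2.16 log2 (adjusted p = 0.0081, limma). TLR8 read 3.26 and 3.49 in control and 5.04 and 4.27 in treated cells (1.28 log2), and the DNA sensor IFI16 9.29 and 9.15 against 10.86 and 9.96 (1.186 log2). The gene of the DNA sensor cGAS (CGAS) went the other way, from 6.94 and 5.83 to 6.07 and 4.29 (−1.20 log2). Its control and treated arrays overlapped. TLR8 was also called higher in THP-1 (1.62 log2), IFI16 higher in NOMO-1 (1.33 log2) and CGAS lower in NOMO-1 (−1.0 log2).

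Of 14 interferon gamma response genes, 3 were called higher and 1 lower in OCI-AML3, among them 2 of the chemokine genes. CXCL11 read 2.88 and 3.19 in control and 6.21 and 4.90 in treated cells, a rise of 2.52 log2 (adjusted p = 0.0081, limma). CXCL10 read 2.70 and 3.36 in control and 5.06 and 5.04 in treated cells, a rise of 2.02 log2 (adjusted p = 0.0091). Both genes, which encode ligands of the chemokine receptor CXCR3, came up from near the dim end of the array. The chemokine gene CXCL9 was called in no line and differed by 0.24 log2 in OCI-AML3. CXCL10 was lower in 3 other lines: it went from 8.29 and 7.65 to 5.83 and 4.58 in NOMO-1 (−2.76 log2), from 6.61 and 5.85 to 4.69 and 3.91 in THP-1 (−1.93 log2), and from 5.50 and 4.67 to 4.55 and 2.87 in MOLM-13 (−1.38 log2). The change in OCI-AML3 exceeded the mean of the other 6 lines by 3.07 ± 0.51 log2 for CXCL10 (adjusted p = 0.0027), by 2.48 ± 0.45 for CXCL11 (adjusted p = 0.0067) and by 2.28 ± 0.30 for TLR3 (adjusted p = 0.00021). The GTPase gene GBP3 read 5.49 and 5.39 in control and 6.99 and 6.39 in treated OCI-AML3 cells (1.25 log2), and the myeloid factor gene IRF8 fell from 12.08 and 11.66 to 11.08 and 10.38 (−1.13 log2). CIITA, the switch of MHC class II genes, was called higher in MV4-11 (2.44 log2) and NOMO-1 (1.06 log2) and not in OCI-AML3. Of 12 MHC class I presentation genes measured, all 12 had positive differences in OCI-AML3, with a median of 0.41 log2, where 8071 of all 17687 genes did. In U-937, 9 of the 12 were positive, and B2M, HLA-C, HLA-E and HLA-F were positive in 7 of 7 lines, with no test passed for a larger change in OCI-AML3 (adjusted p of 1.00 for each, limma). Of the 12, 1 was called in OCI-AML3: the aminopeptidase gene ERAP2 read 6.41 and 6.52 in control and 7.92 and 7.02 in treated cells (1.01 log2).

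**Figure D4:**
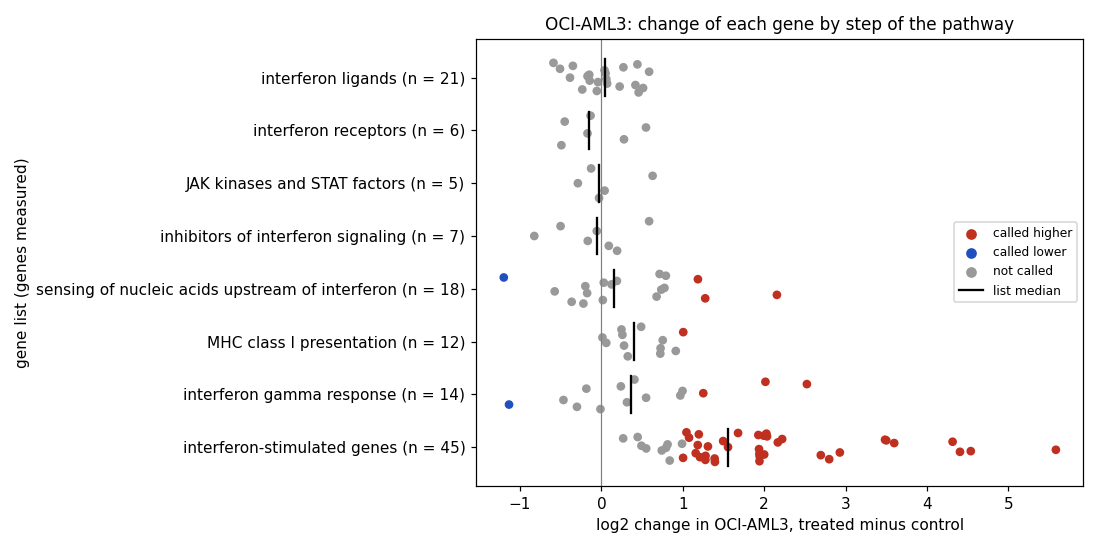
Log2 change in OCI-AML3 (horizontal axis, treated minus control, n = 2 against 2 arrays) of each measured gene of 7 pathway lists and of the 45 interferon-stimulated genes (vertical axis), with red for genes called higher, blue for genes called lower, grey for the rest and a black bar for the list median. The medians are 0.04 log2 for 21 interferon ligands, −0.15 for 6 receptors and 1.56 for the interferon-stimulated genes.

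Markers of other cell types were read beside the response in OCI-AML3. None of 8 T and NK cell, 5 B cell and 4 erythroid markers measured was called there, with median changes of 0.05, −0.23 and 0.13 log2. Plasmacytoid dendritic cells are known for making interferon, and 5 of 6 of their markers had positive differences, with a median of 0.42 log2. Only NRP1 was called (1.90 log2, also called higher in all 4 MLL-r lines). CLEC4C read 2.99 in control and 3.49 in treated cells, and JCHAIN 2.57 and 2.48 (means). TCF4 read 8.87 and 9.21, GZMB 7.46 and 7.57, and IL3RA 4.64 and 5.25. Of 9 myeloid markers, 2 were called higher, namely LYZ (lysozyme) and ITGAM (CD11b), by 1.94 and 1.82 log2. The 9 were split, with 5 positive and 4 negative differences, a median of 0.03 log2 and the lowest in SPI1 (−0.39 log2). DCN was the only one of 7 fibroblast and epithelial markers called (1.16 log2). LYZ was also called higher in U-937 (4.05 log2) and THP-1 (1.58 log2). Any link between these markers and the change of the members was not tested. In these bulk samples a larger share of responding cells and more RNA per cell cannot be told apart.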

How the data were processed

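Expression was measured on 28 Clariom S arrays of 7 AML lines, with 2 control and 2 treated arrays per line. The deposited values are log2 signals per probe set, made by the authors with RMA in R 3.6.1, and the scale runs from 1.19 to 14.2 with array medians from 5.61 to 5.76. Of 27189 rows, 5741 control rows were left out, and of 21448 transcript probe sets 17709 carried 1 gene symbol in the platform annotation while 3739 were unnamed. Probe sets were averaged for 20 genes, leaving 17687 named genes, all tested with no filter on signal. No detection calls were used, so whether dim signals exceed background was not tested.

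Treated and control arrays were compared within each line with limma 3.58.1 (lmFit and eBayes, two-sided, R 4.3.3), and p-values were adjusted by Benjamini-Hochberg over all named genes. Differences between lines were tested in 1 fit of 28 arrays, and averages and MLL-r status on 7 line values. The study's text speaks of a paired analysis, whereas the main comparison here is unpaired and the paired one an alternative. The replicate numbers pair the arrays: deviations of same-numbered control and treated arrays correlated at 0.42 (HL-60) to 0.64 (NOMO-1) in all 7 lines, so blocked values are given where they change a result. The number of arrays limits the precision. Full values are given for members called in any line or among the 5 with the widest control range, and for pathway genes called in OCI-AML3 or in at least 2 lines. The members, lists, comparisons and promoter patterns were chosen with earlier results of these data known. The procedure was tested on simulated data. Promoter windows come from RefSeq (GRCh38.p14). Fits were repeated with the block, all 28 arrays, dim genes left out, median centering, a variance trend, all probe sets, adjusted p, and each replicate left out. Plots used matplotlib.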

Additional observations from a re-analysis of the deposited data

Results flagged for a closer look

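Over the 7 line changes, 17 of 45 members had 1 line so far from the others that its gap to the nearest, as a share of the whole range, exceeded Dixon's 95% critical value for 7 values, and in all 17 that line was OCI-AML3. Among all named genes the share with an outlying line was 8.35%, and chance alone flags about 1 in 20 groups. The changes in OCI-AML3 were 5.58 log2 for MX1, 4.41 for OAS2, 4.31 for IFIT1, 3.597 for IFIT3, 3.48 for IFI44L, 2.93 for OAS3, 2.70 for PARP9, 2.22 for IFI44, 2.17 for IFIT2, 2.03 for DDX60, 2.00 for PARP14 and for EPSTI1, 1.94 for RIGI and for PARP12, 1.28 for SP110, 1.20 for DHX58 and 1.16 for OASL. The median change of the members, 1.56 log2 in OCI-AML3, stood apart from those of the other 6 lines in the same way. OAS1 and IFI6, with changes of 4.54 and 3.50 log2 in OCI-AML3, were not among the 17, and the next highest line was NOMO-1 for both.

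Between lines, the change differed for 14 members by the limma F test and was higher in OCI-AML3 than the mean of the other 6 lines for 20 members, both at an adjusted p under 0.05. The choice of OCI-AML3 was made with earlier results of these data known. For 2 members, OAS1 and OAS2, the change in THP-1 was lower than the mean of the 5 lines other than OCI-AML3 at that threshold, in a contrast chosen after the values were seen.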

How the results depend on the processing

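No result changed its direction under any alternative. With genes dimmer than the median gene left out, 23 members remained in the test, and the members called were 16 in OCI-AML3, 2 in MV4-11 and 0 in THP-1, while 5 differed between lines, 8 stood apart in OCI-AML3 and 19 differed in control level. At an adjusted p under 0.05 without a fold minimum, the counts were 22 in OCI-AML3, 0 in MV4-11, 1 in NOMO-1 and 1 in THP-1. With the replicate block, 31 members differed between lines and 33 stood apart in OCI-AML3, and the block changed no other call at the main threshold. Shares of all genes were not counted for the tests between lines under the block or under the other repeats. At an unadjusted p under 0.05, 5 members changed on average, 5 differed by MLL status in their change and 5 in control level. Leaving out each replicate in turn gave 30 to 38 calls in OCI-AML3, 3 to 8 in MV4-11, 0 to 3 in MOLM-13, 3 to 8 in NOMO-1, 1 to 7 in THP-1, 1 to 4 in HL-60 and 0 in U-937, and 7 to 11 members that differed between lines and 9 to 12 that stood apart in OCI-AML3. Of the 48 gene-level calls, all kept their side of the threshold with the block, with all 28 arrays in 1 fit, with a variance trend and with all probe sets. These settings leave the log2 change of a member as it is, so only its p-value could move. With median centering 47 calls kept their side, and RTP4 in OCI-AML3 came to 0.98 log2. The cause of these shifts was not tested, except that fewer genes or arrays enter where they are left out. The precision is limited by 2 arrays per group.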
